A study of Oryza sativa with 12 samples.

Results

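The expression of 4 genes with a defence-type annotation was described in leaves of Nongken 58S rice, a japonica line whose male fertility depends on day length (photoperiod-sensitive genic male sterility). The genes were OsWAK36 (LOC_Os04g24510, on chromosome 4), a protease inhibitor II known only by its transcript accession AU101269, a gene annotated as disease resistance protein RPM1 (LOC_Os11g41170, chromosome 11) and a pathogenesis-related protein 1 precursor (PR1, LOC_Os07g03730, chromosome 7). They were chosen by their signals in these same arrays, because each stood in a deposited table of genes whose mean signal under short days (SD) was at least 2-fold above or below that under long days (LD). OsWAK36 and AU101269 were among 105 listed genes at the glume primordium differentiation stage (G), and LOC_Os11g41170 and LOC_Os07g03730 were among 201 at the pistil/stamen primordium forming stage (P). None of the 4 was listed at both stages, and the signal of each at its other stage was not analysed here. The difference between SD and LD in these 4 genes is therefore a description, and no p-value of it is given. Counts over all listed genes include these 4, and nothing about them is read from those counts.

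All 12 arrays measured the second fully expanded leaf of Nongken 58S, collected at night, with 3 biological repeats in each of 4 groups. G-SSD2 and P-SSD2 plants received 10 h of light and 14 h of darkness, and G-SLD2 and P-SLD2 plants received 15 h of light and 9 h of darkness. Plants of every group, those under LD included, had first been given short days to bring on flowering and were divided only once the inflorescence had reached secondary branch differentiation. The design holds 1 genotype, so that values of the fertile parent Nongken 58 do not enter, and the leaf is not the organ that becomes sterile. In whole leaves, a smaller share of the cells expressing a gene and less of its RNA per cell cannot be told apart. The array table pairs no probe set with a gene, so leaf markers could not be checked.

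Plants recognise attackers at the cell surface and inside the cell. Wall-associated kinases (WAKs) are receptor-like kinases that cross the plasma membrane and bind pectin of the cell wall, and they form a large family in rice. RPM1 of Arabidopsis is an intracellular receptor with a nucleotide-binding site and leucine-rich repeats, which responds when bacterial effectors alter the host protein RIN4. Downstream of such receptors, leaves secrete PR1 proteins, small proteins widely used as markers of salicylic acid signalling. Inhibitors of the protease inhibitor II type, best known from potato and tomato, block serine proteases in the gut of feeding insects and are induced by wounding and jasmonate. What LOC_Os11g41170 recognises, and what AU101269 inhibits in rice, is not given by the annotation.

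Among the receptor-type genes, OsWAK36 at stage G had signals of 348, 278 and 70.5 in SD repeats 1, 2 and 3. Its LD signals were 59.0, 26.6 and 48.6. The groups did not overlap, but SD repeat 3 lay only 1.20 times above the highest LD array, whereas SD repeats 1 and 2 stood far above all LD arrays. The means were 232 ± 144 in SD and 44.7 ± 16.5 in LD (here and below ± is the standard deviation over n = 3 arrays), a ratio of 5.18. Taken by repeat number, SD over LD came to 5.89, 10.4 and 1.45. The standard deviation of its log2 signals within groups was 0.98, the highest of the 57 genes listed at G as higher in SD and above the median of 0.50 over all 105.

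The low signal of SD repeat 3 was not shared by the listed genes as a whole. In that array the log2 signal of OsWAK36 was 1.43 below its own SD mean, and no other of the 105 listed genes was lower relative to its group, while their median deviation was 0.0037. Without that array the ratio was 6.99, and with 32 units added to every signal it was 3.44.

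LOC_Os11g41170, the gene annotated as RPM1, had SD signals of 89.7, 62.1 and 74.8 at stage P. Its LD signals were 9.30, 8.37 and 12.1. Every SD array was well above every LD array, with the lowest SD signal 5.15 times the highest LD signal. The means were 75.5 ± 13.8 in SD and 9.91 ± 1.92 in LD, a ratio of 7.62, and the 3 same-numbered ratios were 9.64, 7.41 and 6.20. It was the most reproducible of the 4 genes, with a standard deviation of 0.27 within groups on the log2 scale against a median of 0.52 over the 201 listed genes. A gap of at least 5 times between the lowest SD and the highest LD signal was found in 10 of the 98 genes listed at P as higher in SD, this gene included. Its ratio rested on low LD signals, near the median of all probe sets in the array table (7.89 to 8.58 in the P-SLD2 arrays). That table was taken as signals of the scan software (GCOS), and the gene tables as values normalized in dChip. They were not matched value by value. Whether these LD signals were above background was not tested, so the ratio and the gap are uncertain in size. With 32 units added to every signal the ratio was 2.57.

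**Figure D1:**
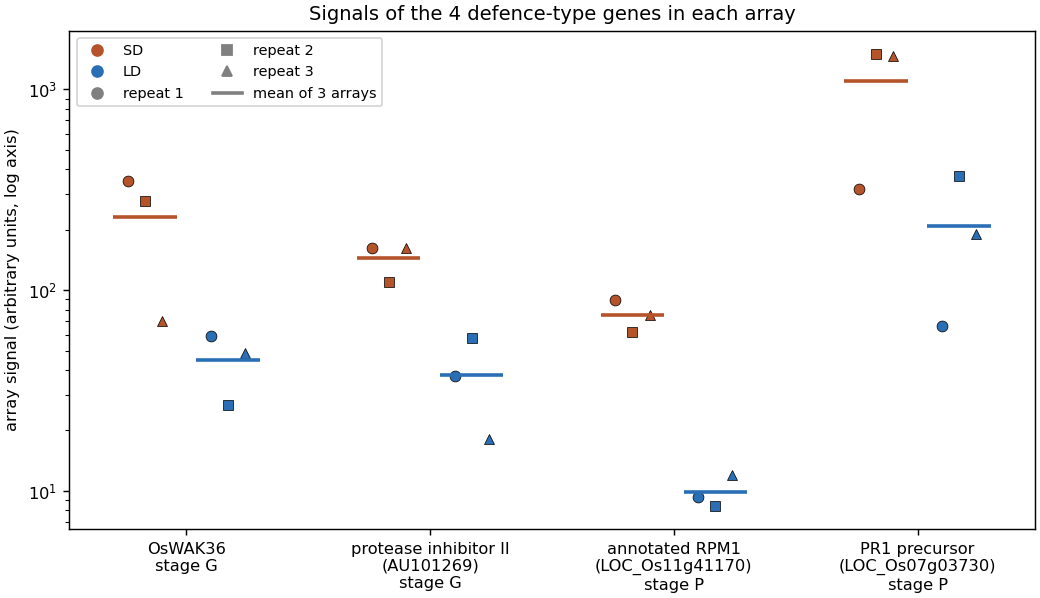
Array signal (arbitrary units, log axis) of the 4 genes at the stage at which each was listed; symbols are the 3 repeats under SD and LD, and bars are group means. SD arrays lie above LD arrays for OsWAK36, protease inhibitor II and the gene annotated as RPM1, while for PR1 the SD array of repeat 1 (320) falls below the LD array of repeat 2 (371).

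Among the genes for secreted products, AU101269 (protease inhibitor II) had signals of 161, 109 and 163 in the SD repeats at stage G. In LD the signals were 37.4, 58.0 and 18.1. SD and LD arrays did not overlap, and repeat 2 was the closest pair, with the lowest SD and the highest LD signal, 1.89 times apart. Means of 144 ± 30.4 in SD and 37.8 ± 19.9 in LD gave a ratio of 3.82, and the other same-numbered ratios were 4.31 for repeat 1 and 8.98 for repeat 3. Relative to the mean, the 3 LD arrays varied more (coefficient of variation 52.7%) than the 3 SD arrays (21.1%). With 32 units added to every signal the ratio was 2.53.

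LOC_Os07g03730 (PR1) had SD signals of 320, 1502 and 1470 at stage P. Its LD signals were 66.0, 371 and 190. The groups overlapped, because SD repeat 1 lay below LD repeat 2. Repeat 1 was the lowest array in SD and also in LD, by 1.48 and 1.34 below the group means on the log2 scale. Only 1 other of the 201 genes listed at P, LOC_Os03g16450 (a pentatricopeptide repeat protein), was likewise at least 1 log2 unit down in repeat 1 of each group. The medians over the 201 genes in these arrays were near 0 (-0.028 in SD and -0.015 in LD).

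The PR1 means were 1097 ± 673 in SD and 209 ± 153 in LD, a ratio of 5.26. Set side by side by repeat number, SD was 4.84, 4.05 and 7.75 times LD. The standard deviation of these 3 ratios was 0.48 on the log2 scale, against 1.79 expected from the spread within groups when repeat numbers are ignored. At stage P, over 25360 probe sets, the departure of each SD array from its group mean correlated with that of the LD array of equal number at 0.22, 0.30 and 0.51. Arrays of unequal number were not compared, so whether repeat numbers pair the arrays was not tested. Leaving out LD repeat 2 moved the ratio to 8.59, and leaving out SD repeat 1, the array with the lowest correlations to others of its group (Pearson r of 0.861 and 0.842 against 0.884 to 0.905 for all other pairs of repeats), moved it to 7.12. PR1 proteins are encoded by a family of similar genes, and whether this probe set also detects transcripts of its relatives was not tested.

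**Figure D2:**
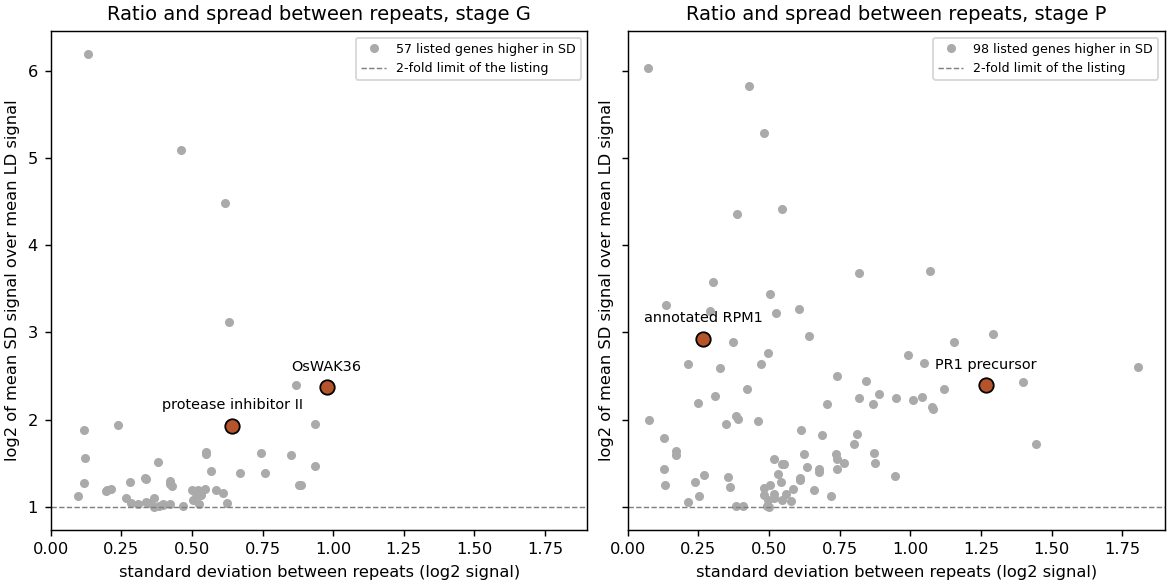
Log2 of the mean SD signal over the mean LD signal against the standard deviation between repeats (log2 signal) for genes listed as higher in SD at stage G (57) and stage P (98); the dashed line is the 2-fold limit used for the listing. OsWAK36 (0.98) and PR1 (1.27) lie towards the right, with large spread, and the gene annotated as RPM1 (0.27) towards the left.

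Every SD array exceeded every LD array for 3 of the 4 genes. The same held for 56 of the 105 listed genes at G (53.3%) and 84 of the 201 at P (41.8%), lists that had themselves been selected on this difference, so nothing is read from the 3 of 4. Over all 57194 non-control probe sets of the array, chosen by no difference, the share was 5.8% at G and 3.31% at P. That share is from GCOS signals, not from the dChip-normalized values of the listed genes. The lowest ratio among genes listed as higher in SD was 2.00 at G and 2.01 at P, and the 4 genes had 3.82 to 7.62. By ratio OsWAK36 stood sixth and AU101269 ninth of the 57 such genes at G, and LOC_Os11g41170 stood at place 16 and LOC_Os07g03730 at place 29 of 98 at P. Across the array, limma found a difference of at least 2-fold with an unadjusted p under 0.05 for 369 of 25360 probe sets at G (1.46%) and for 896 at P (3.53%). At each stage 2 probe sets had a Benjamini-Hochberg adjusted p under 0.05, whatever their fold. The count of 896 moved with single arrays, to 1364 without SD repeat 2 and 1979 without SD repeat 3, and 1739 (G) and 3012 (P) probe sets were found when dim ones were kept.

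Other listed defence-type genes were taken by words in their annotation, as receptor-like genes, resistance-protein types and secreted products. Receptor-like here covers receptor-like and wall-associated kinases and leucine-rich repeat proteins. The place of these products in the cell was not checked. At G the 3 such genes besides OsWAK36 and AU101269 all had lower signals in SD. They were a flower-specific gamma-thionin (LOC_Os03g03810), a small antimicrobial peptide by class, with 157 ± 113 in SD and 465 ± 109 in LD, the lectin receptor kinase 1 gene LOC_Os02g48210, and LOC_Os02g13430, annotated as receptor-like protein kinase 5. The lectin receptor kinase had 46.9 ± 8.29 in SD and 197 ± 91.8 in LD. At P, 12 genes joined LOC_Os11g41170 and LOC_Os07g03730, of which 4 had higher and 8 lower signals in SD. In limma fits to the listed genes, adjusted over all 57194 probe sets, 0 of the 3 genes at G and 0 of the 12 at P passed 0.05. Of all listed genes 1.9% (2 of 105) passed at G and 4.48% (9 of 201) at P. These shares count the members, which were chosen on this difference, whereas the 3 and the 12 leave them out. The comparison is therefore not like for like. All 15 entries, in which LOC_Os02g13430 is counted at both stages, had an unadjusted limma p under 0.05. So did every other listed gene outside the members, and listing had selected them all on this difference. A paired one-sided test, the form taken here for the test that the methods name without stating pairing or side, gave an unadjusted p under 0.05 for 1 of 3 and 10 of 12. The same test passed 73 of the 105 listed genes at G (69.5%) and 128 of the 201 at P (63.7%).

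By type of product, the 2 resistance-protein types at P other than LOC_Os11g41170 had higher signals in SD, as did 98 of the 201 listed genes. They were LOC_Os02g47230, annotated as a disease resistance/zinc finger/chromosome condensation-like protein, and LOC_Os11g34880, which carries an NB-ARC domain, the nucleotide-binding module of intracellular resistance receptors. LOC_Os02g47230 came into this type only by the words disease resistance, and its annotation names no NB-ARC domain. LOC_Os02g47230 had 150, 198 and 101 in SD and 22.0, 17.3 and 21.4 in LD, a ratio of 7.42 (limma, adjusted p = 0.151). LOC_Os11g34880 had 90.8, 99.2 and 139 in SD and 18.9, 21.0 and 28.1 in LD, a ratio of 4.84 (adjusted p = 0.265). In each of these genes SD and LD arrays did not overlap, as in 84 of the 201 listed genes with SD above LD (41.8%), and neither passed the adjusted test. Over the 6 arrays the log2 signals of LOC_Os11g41170 correlated with LOC_Os11g34880 at r = 0.975 and with LOC_Os02g47230 at r = 0.964, values that include the shared gap between SD and LD.

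Of the 6 receptor-like genes at P, 5 had lower mean signals in SD, as did 103 of the 201 listed genes. SD and LD arrays overlapped in 4 of these 5, the exception being AK059775. Every LD array exceeded every SD array in 93 of the 201 listed genes. The wall-associated kinase family gave OsWAK2 (LOC_Os01g04450, annotated as a receptor-like cytoplasmic kinase) with 36.3, 237 and 41.4 in SD and 351, 220 and 299 in LD. In OsWAK2 the SD array of repeat 2 reached the LD range. A wall-associated kinase-like 2 gene (LOC_Os08g29020) had 251 ± 183 in SD and 740 ± 283 in LD, 2.95 times higher in LD. OsWAK36, the only gene of this family listed at G, stood on the SD side there, and at no stage were OsWAK36 and these WAK genes listed together, so their directions were not compared by a test.

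The other receptor-like genes lower in SD at P were a pair of adjacent cysteine-rich receptor-like kinase genes, LOC_Os07g43560 and LOC_Os07g43570, and the leucine-rich repeat protein AK059775. LD over SD was 2.07, 2.76 and 2.10 for these. The log2 signals of the adjacent pair correlated at r = 0.944 over the 6 arrays, and whether their probe sets detect each other's transcripts was not tested. LOC_Os02g13430 was the exception, higher in SD at P with 376 ± 32.4 against 147 ± 144 in LD. The adjusted p was 1 for all 6 receptor-like genes.

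**Figure D3:**
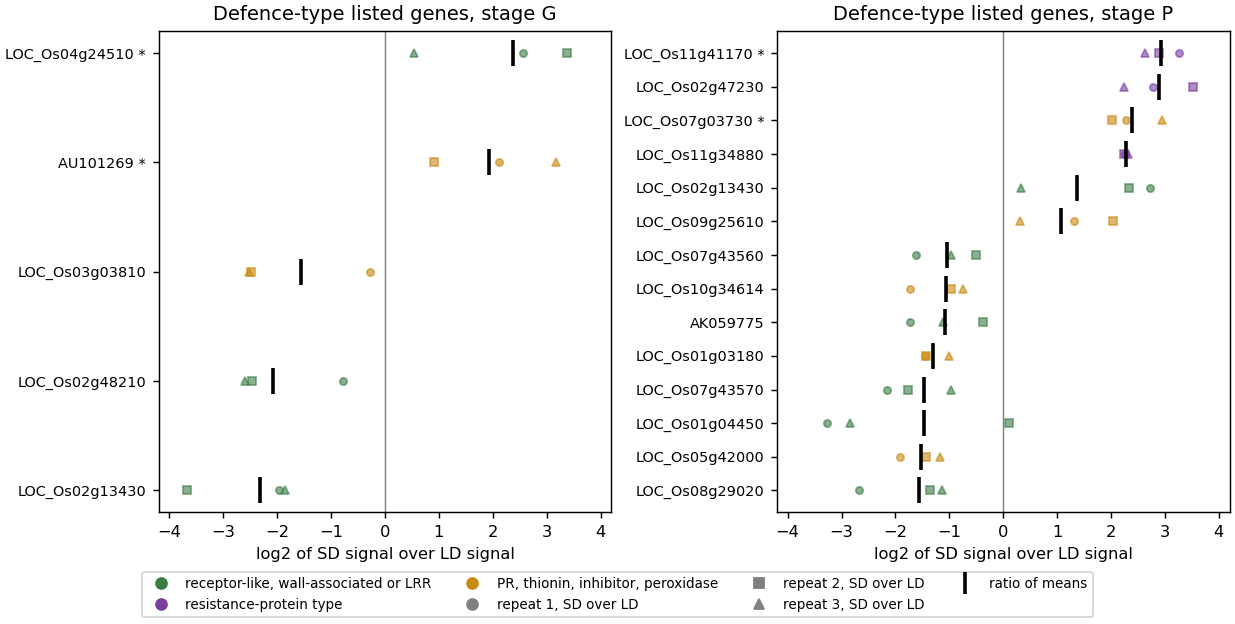
Log2 of SD signal over LD signal for the listed genes with a defence-type annotation, at stage G (5 genes) and stage P (14 genes); symbols are same-numbered repeats, black ticks the ratio of group means, and asterisks mark the 4 genes described in full. At P the 2 resistance-protein types other than LOC_Os11g41170 lie right of 0, and 5 of 6 receptor-like genes have their ratio of means left of it.

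Secreted products were divided at P. LOC_Os07g03730 (PR1) and a defense-related protein (LOC_Os09g25610, 1322 ± 47.7 in SD and 629 ± 352 in LD) were higher in SD. A pr5 gene (LOC_Os01g03180), a csAtPR5 gene (LOC_Os10g34614) and a peroxidase 1 precursor (LOC_Os05g42000) were lower. PR5 proteins are thaumatin-like proteins and, like PR1, markers of salicylic acid signalling in Arabidopsis. The pr5 gene had 40.6, 36.0 and 42.7 in SD and 111, 97.6 and 85.3 in LD, so that SD and LD were apart by 2.00 times, with LD over SD of 2.46. LD over SD was 2.10 for csAtPR5 and 2.87 for the peroxidase, and again SD and LD arrays did not overlap. Every LD array exceeded every SD array in 93 of the 201 listed genes, which had been selected on this difference. The adjusted p was 1 for these 4 genes other than PR1.

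The median log2 difference (SD minus LD) was -1.77 over the 5 defence-type genes at G and -1.05 over the 14 at P, against 1.02 over the 105 and -1.02 over the 201 listed genes. As no listed gene lies between the 2-fold limits, these medians follow the count in each direction: 2 of 5 and 6 of 14 defence-type genes were higher in SD, against 57 of 105 and 98 of 201. Of 10 further rice defence loci looked up by locus number (PR1a, PR1b, PBZ1, NPR1, WRKY45, CEBiP, CERK1, FLS2, AOS2 and JAmyb), 0 were listed at G and 0 at P. The lists held 105 and 201 genes, against 57194 non-control probe sets on the array, so nothing is read from these counts of 0. A gene that is not listed may still differ by less than the limits of the listing, or by more. In the array signals, 369 probe sets at G and 896 at P passed 2-fold with an unadjusted limma p under 0.05. Both counts exceed the number of genes listed.

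The genes whose signals most resembled each member were taken from the same stage by Pearson correlation of log2 signals over 6 arrays. Because most listed genes higher in SD share the gap between SD and LD, their median r with the members was already 0.709 (OsWAK36), 0.880 (AU101269), 0.848 (LOC_Os11g41170) and 0.633 (LOC_Os07g03730). OsWAK36 was closest to LOC_Os01g43230, an unknown protein (r = 0.911), to OsFAD7 (LOC_Os03g18070, r = 0.899), a plastid fatty acid desaturase that makes the trienoic acids from which jasmonate is built, and to a folate/biopterin transporter (LOC_Os07g24230, r = 0.870). With group means removed these were 0.734, 0.934 and 0.954, and all 3 genes had their lowest SD signal in repeat 3, as OsWAK36 did. AU101269 was closest to an RPT2-like gene (LOC_Os11g02610, r = 0.989), to phosphoethanolamine N-methyltransferase (LOC_Os01g50030, r = 0.979), an enzyme of choline synthesis, and to a zinc ion binding transcription factor (LOC_Os08g08120, r = 0.977). With group means removed, the correlation with these 3 genes was 0.964, 0.980 and 0.884, that is, they shared the low SD signal of repeat 2 and the low LD signal of repeat 3. For every member these genes were picked for high r over the same 6 arrays. High values with group means removed were thus partly selected for.

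LOC_Os11g41170 was closest to LOC_Os11g28130, an unknown protein (r = 0.996), to the protein disulfide isomerase OsPDIL5-3 (LOC_Os02g34530, r = 0.991) and to LOC_Os10g09200, a hypothetical protein (r = 0.988). With group means removed these were 0.976, 0.727 and 0.324, so that for the last of them the resemblance lay in the gap between SD and LD. LOC_Os07g03730 was closest to adenine phosphoribosyltransferase 1 (LOC_Os07g30150, r = 0.989), a small heat shock protein (LOC_Os02g52150, r = 0.959) and the splicing factor SF2 (LOC_Os01g21420, r = 0.940). Here the values with group means removed were 0.977, 0.900 and 0.852. These genes too were low in LD repeat 1, in which PR1 was at its lowest.

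**Figure D4:**
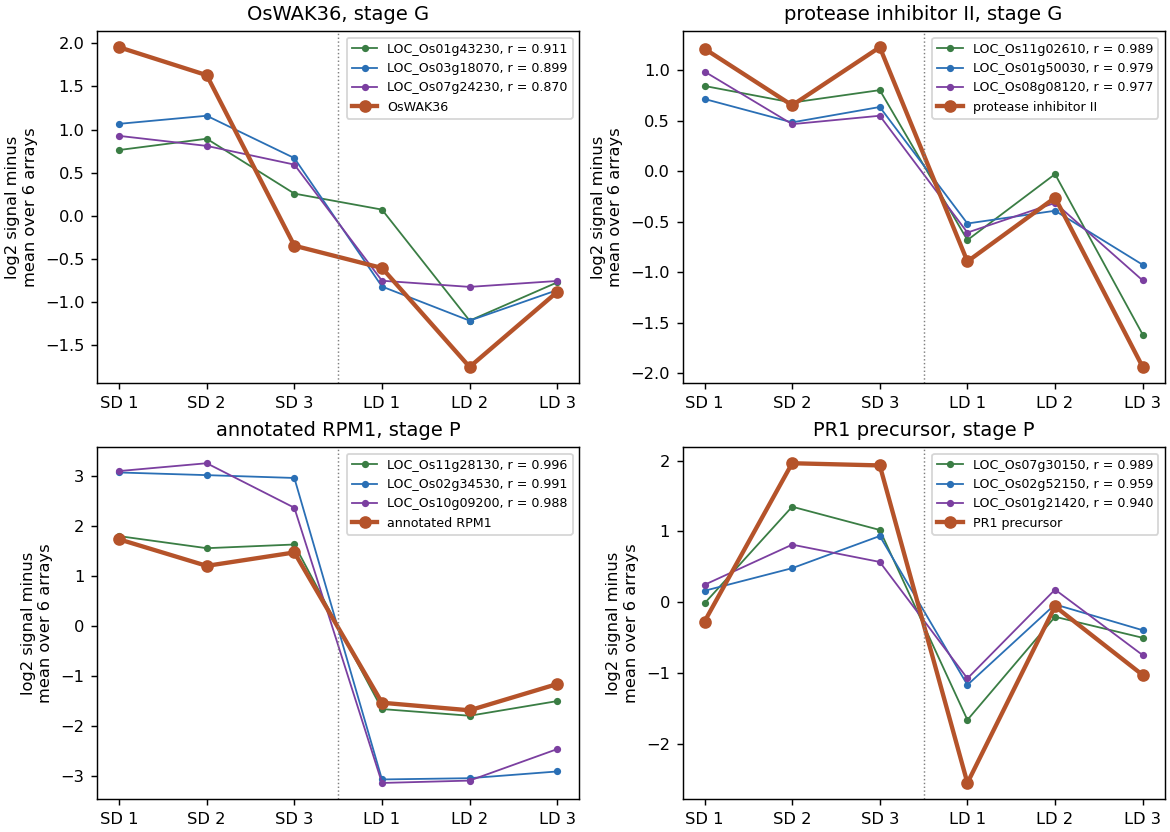
Log2 signal minus the mean over 6 arrays for each of the 4 genes (thick line) and the 3 listed genes of its stage with the highest Pearson r (thin lines); points are arrays, and lines join them only to show the pattern. PR1 and its 3 genes share the low point in LD 1, and OsWAK36 falls further in SD 3 than its 3 genes do.

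By locus number, LOC_Os11g41170 had 2 listed genes within 500 on chromosome 11 at stage P, and OsWAK36 and LOC_Os07g03730 had 0. The phosphoserine phosphatase LOC_Os11g41160, the adjacent number, had 228 ± 106 in SD and 518 ± 127 in LD. LOC_Os11g41600, an unknown protein, had 383 ± 22.1 in SD and 898 ± 30.4 in LD. LD over SD was 2.28 and 2.34, the opposite side from LOC_Os11g41170, and the adjusted limma p was 1 for each.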

How the data were processed

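RNA was hybridised to Affymetrix rice genome arrays. Per the labels and methods, the authors read the scans with GCOS 1.4, subtracted background and applied invariant-set normalization in dChip. They deposited linear signal intensity values for 57381 probe sets and for the genes listed at each stage. The probe-set values were taken as GCOS signals, and only the values of listed genes as dChip-normalized. The fold changes and p-values that the authors placed in those tables were not used. The column heads of the table for stage G carry the letter P; its arrays were taken as G from the table's own name and the series design. Members and gene lists were chosen with earlier results of these data known. Named besides the members were listed genes with defence-type annotations, the 3 most correlated listed genes per member, and listed loci within 500 locus numbers. For listed genes, and for these alone, log2 signals of the 6 arrays of a stage were fitted in limma 3.58.1 (R 4.3.3, moderated with a trend). Their p-values were adjusted by Benjamini-Hochberg as if all 57194 probe sets, without 187 controls, had been tested, counting unlisted ones as having larger p-values. The moderation thus rests on genes selected on the difference. The members were left out of the counts of defence-type genes called, but not of counts over all listed genes. For probe sets, log2 signals were quantile normalized and kept if at or above the 60th percentile of an array on at least 3 of 12 arrays (25360), with 1 coefficient per group. Fits were tested on simulated data. At G, same-numbered SD and LD arrays correlated at 0.19, -0.0025 and 0.32 in their deviations, and only at P were all 3 above 0.1. The main limma fits used no pairing at either stage, and the replicate block was an alternative. The number of arrays limits the precision, with 3 per group. Alternatives were other means, scalings, filters, pairing by repeat and leaving out each array. RefSeq annotation matched 0 of the 4 members, and no sequence was used here.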

Additional observations from a re-analysis of the deposited data

Results flagged for a closer look

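LOC_Os02g13430, annotated as receptor-like protein kinase 5, was singled out among the defence-type genes because its SD and LD arrays did not overlap at either stage and lay in opposite order. At G its signals were 80.3, 30.2 and 109 in SD and 312, 383 and 395 in LD, an SD over LD ratio of 0.201. At P they were 397, 339 and 392 in SD and 59.9, 66.9 and 313 in LD, a ratio of 2.57. This was not particular to it: of 30 genes listed at both stages, 2 had this pattern, the other being LOC_Os02g46850 (0.206 at G and 5.45 at P), named after its values were seen. LD repeat 3 of LOC_Os02g13430 at P was close to the SD arrays. The difference between the stages was not tested, as the tables of the stages were made separately, and neither difference passed the adjusted limma test (adjusted p = 1 at each stage).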

How the results depend on the processing

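All 4 member ratios stayed above 1 under each alternative. For OsWAK36, AU101269 and LOC_Os11g41170 this could not be otherwise, as their SD and LD arrays did not overlap. All 4 had also been chosen on this difference, so nothing is read from it. Leaving out each array in turn gave 3.89 to 6.99 for OsWAK36, 3.03 to 5.20 for AU101269, 6.90 to 8.55 for LOC_Os11g41170 and 3.92 to 8.59 for LOC_Os07g03730, the last without LD repeat 2. With 32 added to every signal the ratio of LOC_Os11g41170 was 2.57, by construction smaller for low signals. Geometric means, which are the same when arrays are paired by repeat number as a replicate block, gave 4.47, 4.18, 7.63 and 5.34. Of the defence-type genes other than the members, 0 of 3 at G and 0 of 12 at P passed, and 0 passed with the replicate block, without the trend, with 32 added or without any 1 array. Adjusted over the listed genes alone 3 and 12 passed, which is no independent evidence, as every listed gene had been selected on this difference. The paired one-sided test gave 1 and 10 unadjusted, and 1 and 2 after Benjamini-Hochberg adjustment over the listed genes. There 54 of 105 and 49 of 201 listed genes passed, members included. Probe sets past 2-fold and p under 0.05 numbered 1739 at G and 3012 at P with no filter on dim probe sets, 1350 at P on the signals as deposited, and 533 and 1265 with the replicate block. Leaving out arrays gave 358 to 507 at G and 683 to 1979 at P, with 1364 without SD repeat 2 and 1979 without SD repeat 3. The cause of these differences was not tested. The 3 arrays per group limit all ratios, and low LD signals those of the genes other than LOC_Os07g03730, whose ratio was 4.69 with 32 added.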
